A study of Mus musculus with 6 samples.

Results

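Every T cell receptor β (TCR-β) chain is built by joining a V, a D and a J gene segment, and the joins lose and gain bases at random. Many joins therefore shift the reading frame or create a stop codon, and such non-productive rearrangements encode no receptor. They remain in cells whose other allele was rearranged productively, are passed on as that cell divides, and escape selection on the receptor. Their transcripts are targets of nonsense-mediated decay, which destroys RNA with an early stop codon, so their read share in RNA libraries is not their share of rearranged alleles. The deposited repertoires list sequences that read as non-productive beside the productive ones. They are set apart by an asterisk or a dot inside complementarity-determining region 3 (CDR3). This region is the stretch across the V-D-J join from a conserved cysteine to a conserved phenylalanine. Whether a marked entry was a non-productive rearrangement or a sequencing or PCR error was not tested. Members were all entries with either mark in the 6 libraries: 21686 of 220493 entries (9.84%), holding 29371 of 525567 reads (5.59%). An entry pairs a V and a J segment with the residues of a CDR3 and gives the reads counted for them.

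The libraries were made from RNA of C57BL/6 mice that received MO4 cells, an ovalbumin-expressing derivative of the B16F10 melanoma line, subcutaneously in the left and the right hindlimb on day 0, at 100000 cells per site. Into the right hindlimb, beside the tumor, IFN-α-iPSC-pMCs (1000000 cells) were injected daily from day 5 to day 7 and again on days 12 and 13, and RNA was taken on day 14. The groups were the treated tumor (injected side), the distant tumor (other hindlimb) and the spleen, with 2 libraries each from 2 mice; all 3 groups come from mice given the cells, and no untreated mouse is among these samples. Libraries held 87784 and 58667 reads for treated tumors 1 and 2, 85987 and 44472 for distant tumors 1 and 2, and 103446 and 145211 for spleens 1 and 2. The protocol mentions no unique molecular tags, so reads cannot be taken as separate molecules, and Wilson 95% intervals given here cover counting error only. Nothing in the labels says that equal library numbers mark the same mouse, and p-values measure only the spread between these libraries. Tests over all 6 libraries treat them as independent units, although they came from 2 mice.

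The asterisk and the dot were the reverse of what such marks usually mean. An asterisk commonly stands for a stop codon and a dot for a lost frame. Here an asterisk stood for a leftover base of an out-of-frame junction, in most entries that could be compared with a shifted J segment. Dots that could be placed on an in-frame germline codon stood mostly at a codon 1 base from a stop codon. The germline J and V segments below show both. Of the marked entries, 13811 (20913 reads) had asterisks, 6775 of them 1 and 7036 of them 2, and none had more. The other 7875 entries (8458 reads) had a dot. This dot class includes 275 entries (295 reads) that carried both marks. The 2 classes are called asterisk and dot entries from here on, and entries without a mark are called unmarked.

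The germline bases that show the meaning of the marks are those at the CDR3 end of TRBJ1-1 and TRBJ2-2, read in 2 shifted frames. They are GENCODE M21 sequences on GRCm38, given 5′ to 3′ on the + strand, with the leftover bases before the last codon in capitals. TRBJ1-1 lies at chr6:41533864-41533883 and TRBJ2-2 at chr6:41542957-41542979.
TRBJ1-1, 1 leftover base: caaacacagaagtcttCttt
TRBJ1-1, 2 leftover bases: caaacacagaagtctTCttt
TRBJ2-2, 1 leftover base: caaacaccgggcagctctaCttt
In frame, TRBJ1-1 reads NTEVFF. With 1 leftover base it reads KHRSL, then the mark, then the last residue, as in the entry CAWSPQGKHRSL*F of TRBV31 and TRBJ1-1. With 2 leftover bases it reads QTQKS. TRBJ2-2 with 1 leftover base reads KHRAAL in an entry of TRBV12-1, the second of treated tumor 1 by reads.

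Over all J segments, 9922 asterisk entries (71.8%) had the mark just before the last residue. Of these, 3689 with 1 asterisk and 6134 with 2 were compared with the shifted frames. With 1 asterisk, 3015 of 3689 entries (81.7%) ended in the J residues read with 1 leftover base and 3 in those read with 2. With 2 asterisks, 5279 of 6134 (86.1%) ended in the J residues read with 2 leftover bases and 1 in those read with 1. The share with the mark at that place differed between J segments, between 45.7% for TRBJ2-1 and 87.3% for TRBJ2-2. Entries with the mark elsewhere were not compared in this way. Among them 1436 had 4 characters after the mark, as in CAWSRGL*EQYF. Entries with 1 asterisk made up 49.6% and 47.3% of the asterisk entries in treated tumors, 45.9% and 45.8% in distant tumors, and 48.7% and 50.3% in spleens.

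Dots that could be placed on a germline codon stood mostly where a single base change makes a stop codon. Among 7243 entries with 1 dot and no asterisk, 2333 dots fell inside an otherwise intact J end. Of these, 2154 (92.3%) were at a germline codon 1 base away from a stop codon, against 49.3% of the 988810 J-encoded residues of unmarked entries. Inside an intact V start it was 1153 of 1226 dots (94.0%), against 31.0% of 692715 V-encoded residues. Left out of the V counts were position 5 of TRBV4, a germline stop codon, and the last whole codon of each V segment. Dots elsewhere in the CDR3 were not placed on a germline codon. The most frequent place was the conserved cysteine at position 1, with 754 dots at a TGT and 158 at a TGC codon. In the J segments, the most frequent codon was a TAT of TRBJ2-7, with 406 dots. The bases below mark this codon and that of a CAG of TRBJ2-1 (132 dots) in capitals (+ strand, chr6:41543810-41543828 and chr6:41542754-41542775).
TRBJ2-7: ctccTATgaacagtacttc
TRBJ2-1: taactatgctgagCAGttcttc
Dots were spread along the CDR3: 17.9% were in its first 4 positions, 36.7% in its last 5 and 45.4% between.

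**Figure D1:**
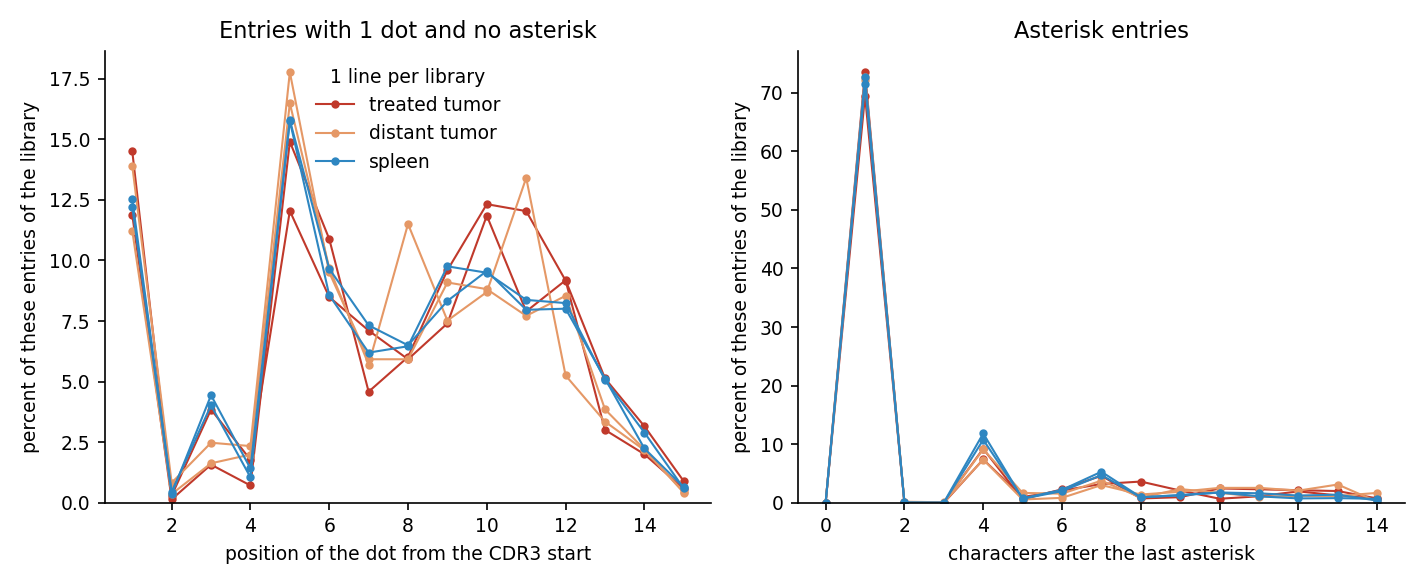
Place of the mark in the CDR3. The panels give the percent of entries with the mark at each place, with 1 line per library for treated tumors, distant tumors and spleens; 71.8% of all asterisk entries had the mark just before the last residue, and dots peaked at position 1 (912 entries) and position 5 (1121 entries) from the start.

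The mark just before the last residue and the dot peaks at positions 1 and 5 appeared in every library, as the plot of mark positions shows. Dots at position 1 made up 14.5% and 11.9% of 1-dot entries in treated tumors, 11.2% and 13.9% in distant tumors, and 12.5% and 12.2% in spleens. Position 3 held 244 dots, 203 of them in entries of TRBV1 or TRBV31.

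TRBV24 and TRBV4 carry a germline stop codon near or inside the CDR3, and TRBV26, a gene with a near-identical end and no stop codon there, is shown beside TRBV24. The last 30 bases of each are given on the + strand, with the stop codon, or the codon in its place, in capitals. TRBV24 lies at chr6:41218528-41218557, TRBV26 at chr6:41227964-41227993 and TRBV4 at chr6:41059857-41059886.
TRBV24: agcactgTAGctctgtgccagcagtctgta
TRBV26: agcactgTACctctgtgccagcagtctgtc
TRBV4: tgctgtgtatctctgtgccagcagcTAAga
In TRBV24, which the annotation lists as a pseudogene, the TAG stands ahead of the cysteine codon and so outside the CDR3: no mark in the CDR3 shows it. In TRBV4, a functional gene, the TAA comes 4 codons after the cysteine codon, at CDR3 position 5, and is lost when the join trims the V end. All 35 gene symbols in the files (23 TRBV and 12 TRBJ) matched the annotation, and TRBV24 was the only pseudogene among them.

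Asterisk reads took a smaller share of every tumor library than of either spleen library, whereas the dot shares of tumors and spleens overlapped. Asterisk entries held 3.89% (Wilson 3.76% to 4.02%) and 3.04% (2.90% to 3.18%) of the reads in treated tumors. They held 2.90% (2.79% to 3.01%) and 2.77% (2.62% to 2.93%) in distant tumors, and 4.69% (4.56% to 4.82%) and 4.92% (4.81% to 5.03%) in spleens. The 4 tumors lay below both spleens, at a mean of 3.15% ± 0.504 (SD, n = 4) in tumors and 4.80% ± 0.164 (SD, n = 2) in spleens. The difference of -1.65 percentage points had p = 0.133 in an exact permutation test (two-sided), the smallest p that 4 libraries against 2 allow. Among entries with at least 2 reads the groups overlapped: asterisk entries held 3.01% and 2.27% of reads in treated tumors, 2.11% and 1.62% in distant tumors, and 2.94% and 3.002% in spleens. The difference of tumors and spleens was then -0.717 points (exact permutation p = 0.4), and -0.590 points for both marks together (exact permutation p = 0.4). Dot entries held 1.37% and 1.41% of the reads in treated tumors, 1.57% and 2.07% in distant tumors, and 1.63% and 1.70% in spleens. Tumors averaged 1.60% ± 0.321 (SD, n = 4) and spleens 1.67% ± 0.0471 (SD, n = 2), a difference of -0.0629 points (exact permutation p = 0.8).

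Between the tumors of the 2 sides neither class differed by a test that could pass 0.05, since 2 libraries against 2 allow no p below 0.333. Asterisk reads averaged 3.46% ± 0.599 in treated tumors and 2.84% ± 0.0896 in distant tumors (SD, n = 2 each), a difference of 0.627 points (exact permutation p = 0.333, two-sided). Dot reads averaged 1.39% ± 0.0294 in treated tumors and 1.82% ± 0.349 in distant tumors (SD, n = 2 each), a difference of -0.431 points (exact permutation p = 0.333). For asterisk reads both treated tumors lay above both distant tumors, and for dot reads both lay below. Over both marks together, treated tumors held 5.25% and 4.45%, distant tumors 4.47% and 4.84%, and spleens 6.32% and 6.62% of reads. The treated and the distant tumors overlapped (difference 0.197 points, exact permutation p = 1), and both groups lay below the spleens (difference of all tumors and spleens -1.72 points, p = 0.133).

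**Figure D2:**
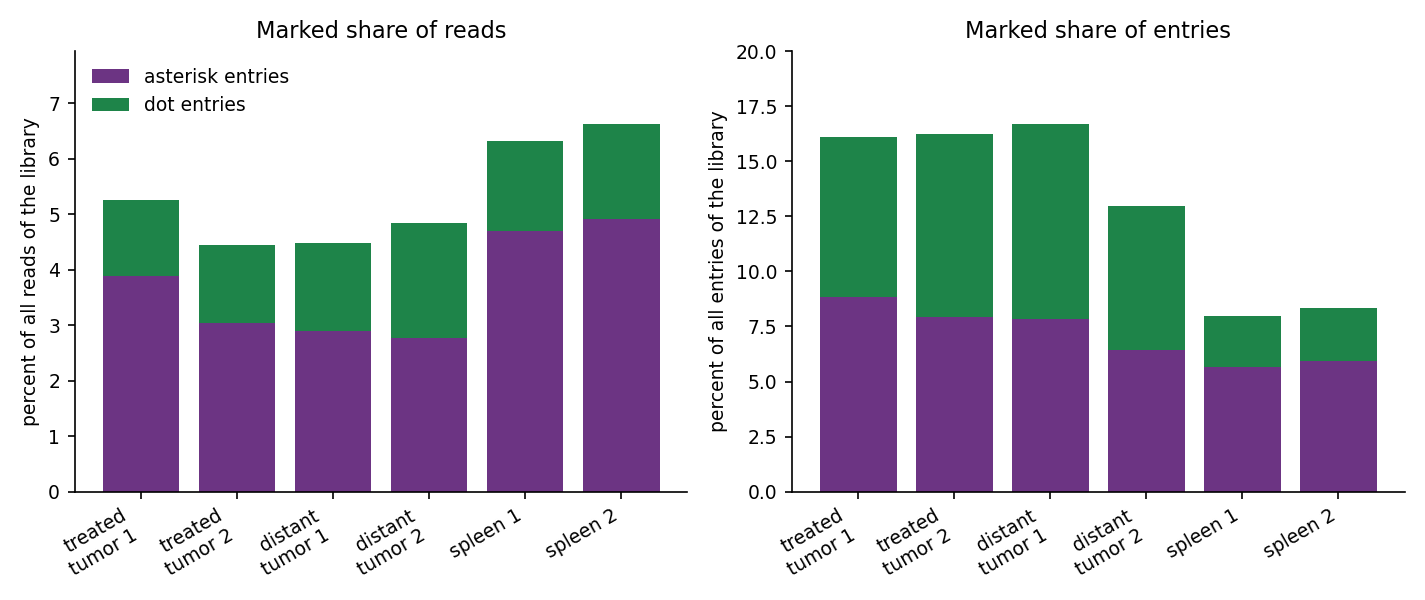
Share of reads and of entries with each mark. Each stacked bar is 1 library, ordered treated tumor, distant tumor and spleen, and starts at 0; the parts are asterisk and dot entries, in percent of all reads (left) or entries (right). By reads the asterisk share was 2.77% to 3.89% in tumors and 4.69% to 4.92% in spleens, whereas by entries the order was turned round, with 6.45% to 8.83% in tumors and 5.65% to 5.92% in spleens.

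Counted as entries in place of reads, the order of tissues turned round, as the plot of shares shows. Asterisk entries were 8.83% and 7.95% of all entries in treated tumors, 7.85% and 6.45% in distant tumors, and 5.65% and 5.92% in spleens. Dot entries were 7.30% and 8.30% in treated tumors, 8.84% and 6.50% in distant tumors, and 2.34% and 2.40% in spleens. The differences of tumors and spleens were 1.99 points for asterisk and 5.37 points for dot entries (exact permutation p = 0.133 each). Unmarked entries averaged 6.52 and 7.44 reads in treated tumors, 7.33 and 4.09 in distant tumors, and 1.497 and 1.470 in spleens.

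Compared at equal read depth, asterisk entries were about as many as unmarked ones in tumors and fewer in spleens, and dot entries were more in tumors and about as many in spleens. If the unmarked reads of a library were drawn down to its number of asterisk reads, 1473 and 688 entries would be expected in treated tumors, 1014 and 748 in distant tumors, and 4629 and 6834 in spleens. Observed were 1343 and 716 asterisk entries in treated tumors, 1056 and 767 in distant tumors, and 3972 and 5957 in spleens. At the depth of the dot reads, 693 and 414 unmarked entries would be expected in treated tumors and 626 and 586 in distant tumors. Observed were 1111 and 747 dot entries in treated tumors and 1188 and 773 in distant tumors. In spleens 1655 and 2420 were expected and 1643 and 2413 dot entries observed. Entries with a single read made up 84.2% to 87.3% of asterisk entries, 95.6% to 98.0% of dot entries and 72.05% to 82.6% of unmarked entries.

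Asterisk entries with many reads were found in the tumors. The 10 asterisk entries with the most reads held 17.0% and 40.4% of asterisk reads in treated tumors, 31.4% and 16.6% in distant tumors, and 1.46% and 0.812% in spleens. The 10 leading unmarked entries held 15.9% and 22.0% of unmarked reads in treated tumors, 38.6% and 20.5% in distant tumors, and 1.11% and 1.01% in spleens. All 4 tumors lay above both spleens in both classes. The 10 leading dot entries held 4.75% and 9.07% of dot reads in treated tumors, 8.36% and 15.8% in distant tumors, and 1.72% and 1.09% in spleens. In bulk RNA, more cells with a rearrangement and more RNA per cell cannot be told apart. CASSLGGTPTT**F (TRBV12-1 and TRBJ1-2) had 126 reads in distant tumor 1. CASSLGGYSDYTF, an unmarked entry of the same genes there, had 15201. Whether leading asterisk entries arose from errors in reads of abundant unmarked entries was not tested.

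The 2 leading asterisk entries of each library are listed with their TRBV and TRBJ gene.
Treated tumor 1: CASSLGLGGC*EQFF, TRBV24 and TRBJ2-1, and an entry of TRBV12-1 and TRBJ2-2 that ends in KHRAAL*F
Treated tumor 2: CASSLP**SSAETLYF, TRBV24 and TRBJ2-3, and CASSIEGNKLRLH*F, TRBV19 and TRBJ1-2
Distant tumor 1: CAWSPQGKHRSL*F, TRBV31 and TRBJ1-1, and CAWSPRQGARHPV*F, TRBV31 and TRBJ2-5
Distant tumor 2: CASSLGDRGTKDY**F, TRBV15 and TRBJ1-4, and CASSLGGLMNS**F, TRBV19 and TRBJ2-7
Spleen 1: CASSIDFQRKII*F, TRBV19 and TRBJ1-4, and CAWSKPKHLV*F, TRBV31 and TRBJ2-4
Spleen 2: CAWSRGL*EQYF, TRBV31 and TRBJ2-7, and CASSWDRGG*EQYF, TRBV3 and TRBJ2-7
In treated tumor 1 CASSLGLGGC*EQFF had 87 reads and the TRBV12-1 entry had 74. In treated tumor 2 CASSLP**SSAETLYF had 167 reads, which is 9.37% of that library's asterisk reads, and CASSIEGNKLRLH*F had 136. In distant tumor 1 the leading pair had 130 and 127 reads, and in distant tumor 2 it had 34 and 29. The leading pairs of the spleens had 13 and 10 reads in spleen 1 and 11 and 6 in spleen 2. Among all entries of its library, marked or not, the leading asterisk entry ranked 130 and 50 in treated tumors, 43 and 131 in distant tumors, and 98 and 195 in spleens.

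Dot entries were small apart from a single one. CAWSP.SRGDTEVFF, of TRBV31 and TRBJ1-1, had 29 reads in treated tumor 2, 110 in distant tumor 2 and 1 in spleen 2, and was not listed in the other 3 libraries. In distant tumor 2 it held 12.0% of the dot reads and ranked 32 among all entries, and no unmarked entry of the same TRBV and TRBJ genes matched it on both sides of the dot. The other leading dot entry of treated tumor 2, CASSLELGG.EQYF of TRBV16 and TRBJ2-7, had 10 reads. In treated tumor 1, CGARE.AGEDERLFF of TRBV20 and TRBJ1-4 had 12 reads and CASS.EGGLSYEQYF of TRBV4 and TRBJ2-7 had 9. In distant tumor 1, CASS.ELGGREQYF of TRBV16 and TRBJ2-7 had 20 reads and CASSLGG.SDYTF of TRBV12-1 and TRBJ1-2 had 16. The entry CASS.ELGGREQYF also had 8 reads in treated tumor 2 and 6 in distant tumor 2, where it was second among dot entries. The leading dot entries of the spleens had 4 reads each, and were CASS.DSNQAPLF (TRBV2) and CASV.TGGYEQYF (TRBV3) in spleen 1, and CASSCIG.GAETLYF (TRBV26) and CASS.VREESAETLYF (TRBV4) in spleen 2.

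Part of the dot entries stood beside an unmarked entry of the same library that was identical except around the dot, and in the tumors that partner often had many reads. Such a partner had the same TRBV and TRBJ genes, the same residues before and after the dot, and a length within 1 residue. CASSLGG.SDYTF had the partner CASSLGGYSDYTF with 15201 reads in distant tumor 1, and CASS.ELGGREQYF and CASSLELGG.EQYF had partners with 4461 reads in distant tumor 1 and 2172 reads in treated tumor 2. A partner in the own library existed for 25.2% and 29.5% of dot entries in treated tumors, 26.9% and 23.2% in distant tumors, and 17.2% and 15.9% in spleens. In the library of the same tissue with the other number, it existed for 3.96% and 4.15% in treated tumors, 4.38% and 4.40% in distant tumors, and 9.13% and 7.42% in spleens. The own-library share was above the other in all 6 libraries. The median partner had 45.5 and 49.5 reads in treated tumors, 18 and 12 in distant tumors, and 2 and 2 in spleens. Asterisk entries had such a partner of equal length in at most 1.03% of entries of any library, but a shifted J leaves few residues that could match. They were therefore also compared by their first 8 residues alone, where these held no mark. An unmarked entry of the own library with the same TRBV, TRBJ and first 8 residues existed for 17.3% and 20.6% of the asterisk entries tested in treated tumors, 16.5% and 18.7% in distant tumors, and 22.9% and 23.8% in spleens. In the library of the same tissue with the other number it existed for 3.30% and 5.15% in treated tumors, 5.63% and 7.63% in distant tumors, and 23.8% and 19.1% in spleens. The own-library share was the higher in all 4 tumors and in spleen 2. Whether entries with a partner arose from sequencing or PCR error was not tested.

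The same sequence was found more often in treated and distant tumors with the same library number than across numbers, for asterisk and for unmarked entries. Equal in TRBV, TRBJ and CDR3 were 46 asterisk entries in the tumors numbered 1 and 17 in those numbered 2. These 63 were 63 of 2059 asterisk entries of treated tumors and 63 of 1823 of distant tumors, and 13 entries were shared between treated and distant tumors of different numbers. In distant tumor 1 the shared entries held 20.02% of asterisk reads, and CAWSPRQGARHPV*F had 24 reads in treated tumor 1 and 127 in distant tumor 1. CASSQGIKHRSL*F, of TRBV2 and TRBJ1-1, had 62 reads in treated tumor 1 and 23 in distant tumor 1. In the tumors numbered 2, CASSLELGGARTV*F (TRBV16 and TRBJ2-7) had 19 reads on the treated side and 24 on the distant side, and CASSLELGGANS**F of the same genes had 15 reads on the treated and 25 on the distant side. Both begin with CASSLELGG, as did an unmarked entry of these genes with 2172 reads in treated tumor 2. Whether shared asterisk entries arose from errors in reads of shared unmarked entries was not tested. Of 1858 dot entries of treated and 1961 of distant tumors, 23 were shared within numbers and 10 across them. Of 20300 unmarked entries of treated and 21548 of distant tumors, 1026 were shared within numbers and 283 across them. Per treated tumor, the share within numbers was 2.37% to 3.43% of asterisk, 0.900% to 1.74% of dot and 4.74% to 5.58% of unmarked entries. Per distant tumor it was 2.22% to 4.36%, 0.842% to 1.68% and 4.07% to 5.40%. The sharing was counted and not tested, since the labels do not tie numbers to mice.

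The pseudogene TRBV24 stood out among the V segments. Of its 1120 reads in all libraries, 941 (84.0%) were asterisk reads. By library this share was 250 of 260 reads (96.2%) and 251 of 314 (79.9%) in treated tumors, 95 of 107 (88.8%) and 16 of 23 (69.6%) in distant tumors, and 139 of 171 (81.3%) and 190 of 245 (77.6%) in spleens. By entries it was 377 of 474 (79.5%): 253 with 1 asterisk, 124 with 2, 9 with a dot and 88 with no mark. The 88 unmarked entries (170 reads) are in frame but, by the germline sequence shown above, carry the TAG ahead of the CDR3. TRBV24 took 7.33% and 14.1% of asterisk reads in treated tumors, 3.81% and 1.30% in distant tumors, and 2.87% and 2.66% in spleens. Of unmarked reads it took between 0.00945% (distant tumor 2) and 0.109% (treated tumor 2).

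Use of V segments was tested on reads per gene with edgeR's quasi-likelihood test, class against class within library (the library as a block), with Benjamini-Hochberg adjustment over the genes tested. Of 21 TRBV genes tested between asterisk and unmarked reads, 11 (52.4%) passed an adjusted p of 0.05, 5 with a higher and 6 with a lower share among asterisk reads. TRBV24 was higher by 7.21 on the log2 scale (SE 0.50, adjusted p = 4.16e-08). TRBV31, which lies alone beyond the constant genes in the opposite orientation and joins by inversion, was higher by 1.68 (SE 0.52, adjusted p = 0.0167). TRBV31 took 10.7% and 3.25% of asterisk reads in treated tumors, 17.9% and 7.79% in distant tumors, and 13.4% and 11.6% in spleens. Of unmarked reads it took 4.12% and 2.18% in treated tumors, 1.26% and 2.63% in distant tumors, and 6.13% and 5.13% in spleens. The asterisk share was the higher in each of the 6 libraries.

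TRBV4, with the germline stop codon at CDR3 position 5, was higher among asterisk reads by 1.35 on the log2 scale (SE 0.23, adjusted p = 0.000515). It took 4.37% and 5.89% of asterisk reads in treated tumors, 3.53% and 4.62% in distant tumors, and 5.80% and 5.89% in spleens. Of unmarked reads it took 1.53% and 2.16% in treated tumors, 0.859% and 2.28% in distant tumors, and 2.92% and 2.66% in spleens. TRBV30 (1.34) and TRBV19 (1.00) were the other 2 genes with higher shares (adjusted p = 0.0167 each), and for both the asterisk share stood farthest above the unmarked share in treated tumor 2. TRBV30 took 2.75% of asterisk and 0.328% of unmarked reads there, and 0.280% and 0.211% in spleen 2. TRBV19 took 15.7% of asterisk and 2.99% of unmarked reads in treated tumor 2, with CASSIEGNKLRLH*F alone at 7.63% of the asterisk reads. Without distant tumor 2, the adjusted p of TRBV30 was 0.0520 and that of TRBV19 0.0583.

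The genes with lower asterisk shares were TRBV29 (-0.93), TRBV12-2 (-0.73), TRBV13-2 (-0.70), TRBV20 (-0.51), TRBV3 (-0.49) and TRBV16 (-0.33), at adjusted p between 0.00345 and 0.0469. The TRBV20 call was lost without any 1 of the 6 libraries (adjusted p between 0.0536 and 0.123). TRBV29 was lost without treated tumor 1 (0.0903), treated tumor 2 (0.0671) or distant tumor 1 (0.0602), and TRBV16 without distant tumor 1 (0.0536), distant tumor 2 (0.0568) or spleen 2 (0.0674). TRBV13-2 was lost without treated tumor 1 (0.0578), and TRBV12-2 and TRBV3 were called whichever library was left out. Among entries of at least 2 reads, or with no library block, TRBV12-2 and TRBV3 no longer passed. TRBV3 was also lost without the 10 most abundant entries of each class. TRBV13-2 took 5.22% and 3.08% of asterisk reads in treated tumors, 8.38% and 9.41% in distant tumors, and 8.95% and 7.91% in spleens. Of unmarked reads it took 14.0% and 9.49% in treated tumors, 8.09% and 10.6% in distant tumors, and 14.3% and 12.2% in spleens; distant tumor 1 was the exception to the direction. Reads of TRBV12-1 and TRBV12-2, and of the 3 TRBV13 genes, could be split between near-identical family members. Counted as entries in place of reads, 10 of 20 genes passed (50.0%). TRBV24 (5.90), TRBV31 (1.13), TRBV4 (0.85) and TRBV19 (0.43) were again higher, and TRBV20 (-0.07) and TRBV16 (-0.17) no longer passed.

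**Figure D3:**
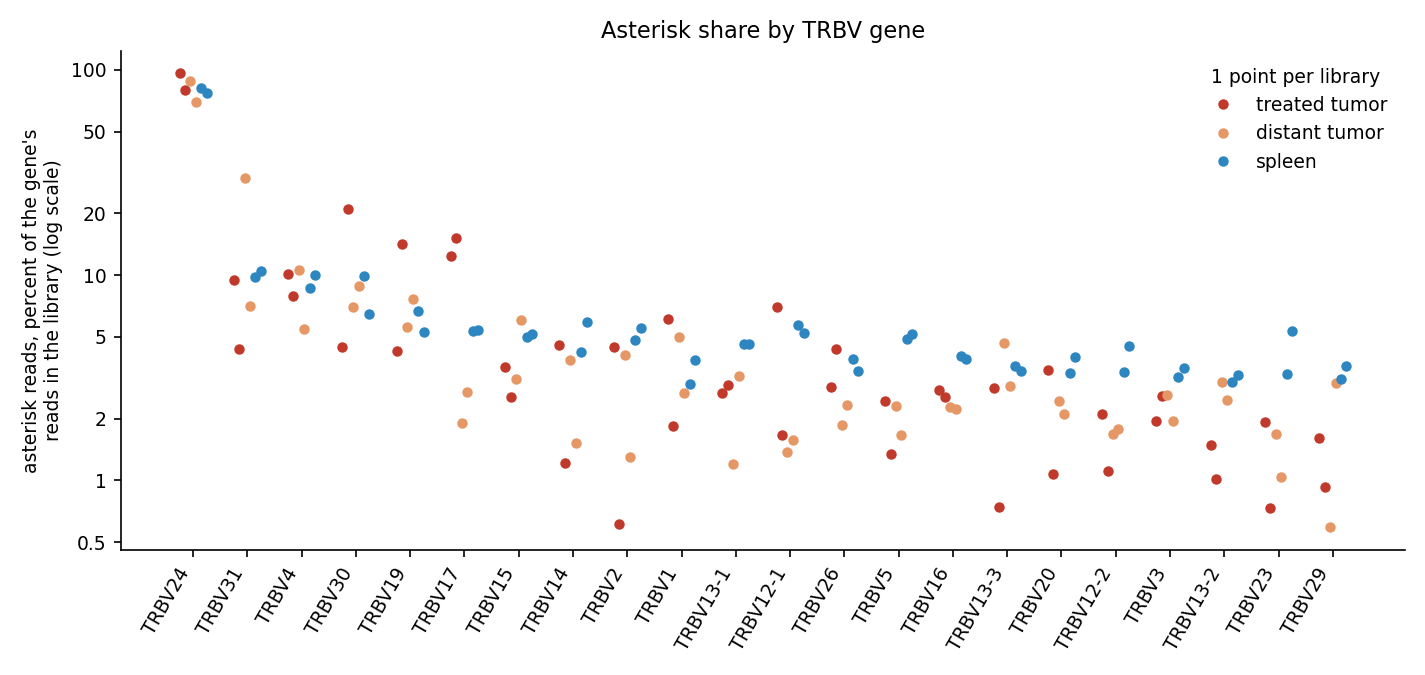
Asterisk share of each TRBV gene's reads, in percent. Each point is 1 library of the treated tumor, distant tumor or spleen group, and genes with at least 500 reads are ordered by the share over all libraries, on a log axis; TRBV24 lies between 69.6% and 96.2%, and TRBV31 in distant tumor 1 is at 29.7%.

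As a share of each gene's own reads over all libraries, marked reads were 84.8% for TRBV24, 12.9% for TRBV31, 12.3% for TRBV4 and 9.37% for TRBV30, the highest among genes with at least 500 reads. They were lowest for TRBV23 (3.69%), TRBV13-2 (3.83%), TRBV29 (3.94%) and TRBV20 (4.09%). The plot of asterisk shares by gene shows that TRBV31 reached 29.7% in distant tumor 1, the library of the entries with 130 and 127 reads, and lay between 4.36% and 10.5% in the other 5 libraries. TRBV4 lay between 5.44% (distant tumor 2) and 10.6% (distant tumor 1).

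Between dot and unmarked reads TRBV4 was the only V segment called. Of 21 TRBV genes, 1 (4.76%) passed: TRBV4 was higher by 0.95 on the log2 scale (SE 0.23, adjusted p = 0.0286 by edgeR's quasi-likelihood test). It took 3.50% and 1.81% of dot reads in treated tumors, 2.59% and 2.72% in distant tumors, and 7.28% and 5.99% in spleens, below its unmarked share in treated tumor 2 alone. The dots of TRBV4 stood where its germline stop codon lies: 147 of 284 of its 1-dot entries (51.8%) had the dot at position 5, against 14.0% of other 1-dot entries. By library these were 5 of 16 and 5 of 12 in treated tumors, 5 of 16 and 5 of 21 in distant tumors, and 57 of 98 and 70 of 121 in spleens. The call was lost without treated tumor 1 (adjusted p = 0.169), spleen 1 (0.170), spleen 2 (0.183) or distant tumor 1 (0.0674). Counted as entries, 8 of 20 genes passed (40.0%), 3 higher (TRBV4, TRBV16 and TRBV1) and 5 lower.

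Set against each other, dot and asterisk reads differed at 8 of 21 TRBV genes (38.1%) by the same test. Dot reads had higher shares of TRBV29 (1.09), TRBV3 (0.79), TRBV14 (0.74), TRBV12-2 (0.65) and TRBV16 (0.60), and lower shares of TRBV24 (-5.39), TRBV30 (-2.13) and TRBV19 (-1.39). The TRBV29 call was lost without treated tumor 1 (edgeR adjusted p = 0.0957) or treated tumor 2 (0.0836), and the TRBV14 call without treated tumor 2 (0.0871), distant tumor 2 (0.0517) or spleen 1 (0.0653). Over both marks together, 7 of 22 genes (31.8%) differed from unmarked reads: TRBV24 (6.74), TRBV4 (1.23) and TRBV31 (1.51) were higher, and TRBV13-2 (-0.61), TRBV20 (-0.50), TRBV29 (-0.50) and TRBV12-2 (-0.49) were lower. When each library was left out in turn, the lower calls were mostly lost: TRBV13-2 stayed past the threshold only without distant tumor 1, TRBV20 only without treated tumor 1, TRBV12-2 only without spleen 2, and TRBV29 only without distant tumor 2 or spleen 2. TRBV31 was lost without distant tumor 2 (adjusted p = 0.0590). Counted as entries, 9 of 22 genes (40.9%) passed for both marks together. TRBV24 (5.33), TRBV31 (0.755) and TRBV4 (0.71) were again higher, and the 6 lower genes (27.3%) were TRBV23 (-0.57), TRBV13-3 (-0.44), TRBV26 (-0.42), TRBV13-2 (-0.36), TRBV12-2 (-0.29) and TRBV13-1 (-0.28).

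**Figure D4:**
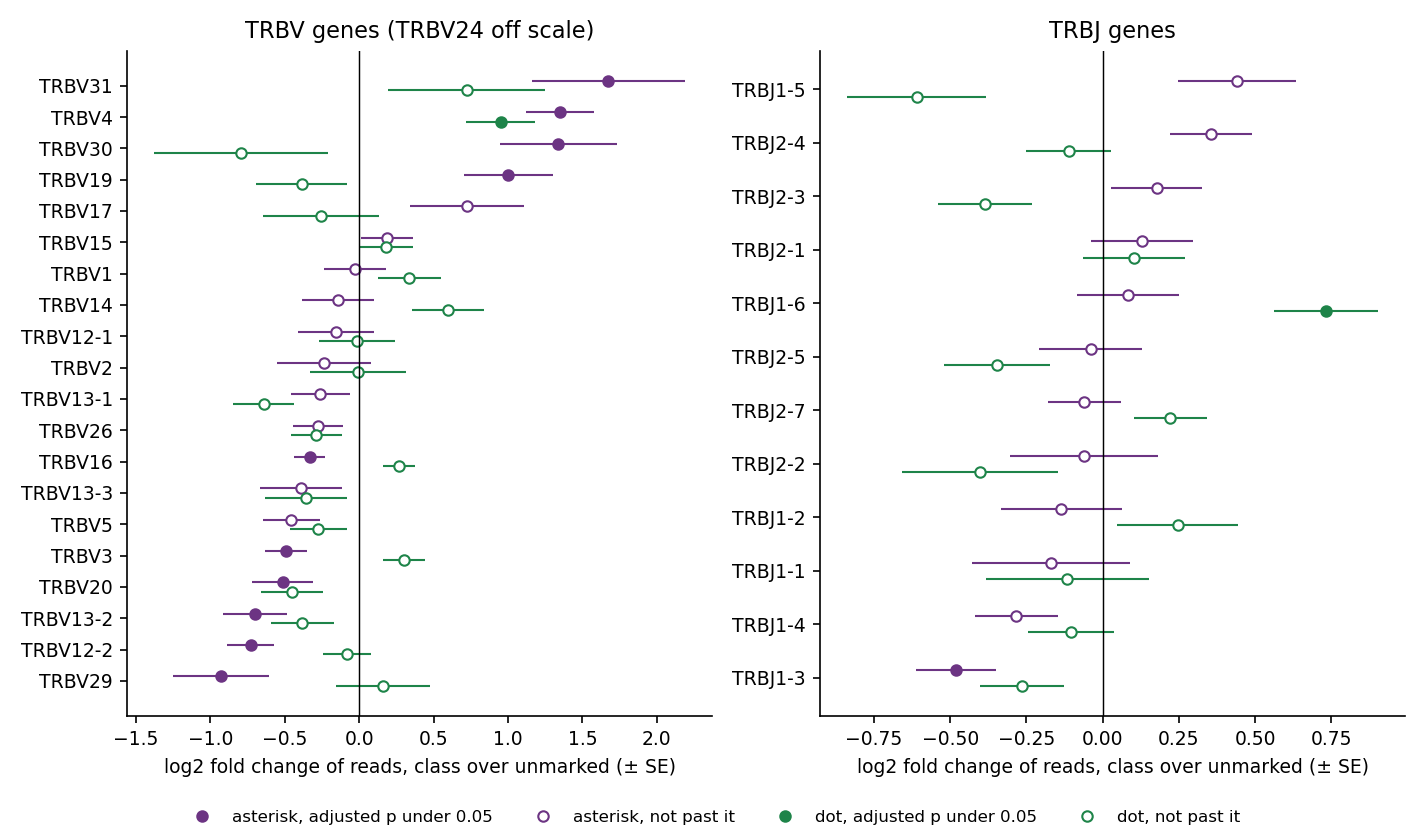
Log2 fold change of reads per gene, asterisk or dot over unmarked, with SE from edgeR, for TRBV genes (left) and TRBJ genes (right). Filled points passed an adjusted p of 0.05; TRBV24 at 7.21 (asterisk) is off the scale.

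Asterisk and dot reads each differed from unmarked reads at a single J segment, and not at the same one, as the plot of fold changes shows. Of 12 TRBJ genes, 1 (8.33%) passed between asterisk and unmarked reads: TRBJ1-3 was lower by -0.48 on the log2 scale (SE 0.13, edgeR adjusted p = 0.0246), at 3.08% and 2.24% of asterisk reads in treated tumors, 1.81% and 2.76% in distant tumors, and 4.19% and 4.51% in spleens. Its unmarked shares were 5.45% and 3.26% in treated tumors, 2.81% and 4.14% in distant tumors, and 4.81% and 5.06% in spleens, each above the asterisk share. The call was lost without distant tumor 1 or 2 (adjusted p = 0.112 and 0.109). Between dot and unmarked reads, 1 of 12 (8.33%) passed: TRBJ1-6 was higher by 0.73 (SE 0.17, edgeR adjusted p = 0.00602), against 0.08 for asterisk reads (adjusted p = 0.750). TRBJ1-6 took 5.66% and 13.9% of dot reads in treated tumors, 8.36% and 5.88% in distant tumors, and 6.15% and 4.94% in spleens. Of unmarked reads it took 3.51% and 8.64% in treated tumors, 4.73% and 3.85% in distant tumors, and 3.45% and 2.97% in spleens, lower than the dot share in all 6.

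Dot against asterisk reads gave 4 of 12 TRBJ genes (33.3%): TRBJ1-6 was higher (0.65), and TRBJ1-5 (-1.05), TRBJ2-3 (-0.56) and TRBJ2-4 (-0.47) were lower in dot reads, TRBJ2-4 not without distant tumor 1 (edgeR adjusted p = 0.0874). TRBJ1-5 took 0.583% and 1.57% of dot reads in treated tumors, 0.666% and 0.762% in distant tumors, and 2.07% and 1.74% in spleens. Of asterisk reads it took 2.32% and 1.23% in treated tumors, 2.05% and 2.27% in distant tumors, and 3.24% and 3.67% in spleens, the higher share in all libraries but treated tumor 2. With both marks pooled, 0 of 12 TRBJ genes passed on reads by edgeR (0%; 2 at an unadjusted p under 0.05, and DESeq2 gave 0 calls), and 6 of 12 (50.0%) passed on entries. On entries TRBJ1-6 (0.32), TRBJ1-5 (0.24) and TRBJ2-1 (0.17) were higher, and TRBJ1-1 (-0.52), TRBJ1-3 (-0.34) and TRBJ2-2 (-0.30) lower. On entries, asterisk against unmarked gave 5 calls (41.7%), with TRBJ1-5 higher by 0.64 and TRBJ1-1 lower by -0.50. Dot against unmarked gave 9 (75.0%), with TRBJ1-6 (0.71), TRBJ1-2 (0.49) and TRBJ2-7 (0.30) higher. In all reads, marked shares were highest for TRBJ1-5 (6.84%), TRBJ1-6 (6.60%) and TRBJ2-4 (6.42%) and lowest for TRBJ1-2 (4.62%), TRBJ1-3 (4.66%) and TRBJ1-1 (4.79%).

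Asterisk reads used the upstream J cluster, TRBJ1, less than unmarked reads did in each library. TRBJ1 genes took 29.2% and 24.7% of asterisk reads in treated tumors, 35.5% and 30.9% in distant tumors, and 27.5% and 28.8% in spleens. Of unmarked reads they took 33.9% and 28.6% in treated tumors, 43.9% and 31.9% in distant tumors, and 31.9% and 31.4% in spleens. The mean difference was -4.17 percentage points, lower in 6 of 6 libraries (exact sign-flip permutation test over libraries, two-sided p = 0.03125, the smallest 6 libraries allow). With Benjamini-Hochberg adjustment over the 3 tests of this kind (asterisk, dot and both marks) its p was 0.0938, above 0.05. For dot reads the difference was 2.01 points (exact sign-flip permutation p = 0.469), with shares between 30.3% (spleen 2) and 41.6% (distant tumor 2).

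CDR3 lengths of marked entries were spread more widely than those of unmarked entries, with medians within 1 base. Among entries with the usual first residues of their V segment, the SD was smaller in all 6 libraries for asterisk entries, and in the 4 tumors but not in the spleens for dot entries. Length was counted in bases, an asterisk as 1 base and any other character as 3. The median was 43 bases for asterisk entries in each library, and 42 for dot and for unmarked entries. The SD of length was 12.7 and 10.1 bases for asterisk entries in treated tumors, 9.31 and 9.47 in distant tumors, and 8.50 and 7.97 in spleens. It was 9.71 and 9.26 for dot entries in treated tumors, 7.59 and 6.42 in distant tumors, and 13.5 and 15.2 in spleens. Unmarked entries had an SD of 4.397 and 4.635 in treated tumors, 4.24 and 4.14 in distant tumors, and 4.35 and 4.35 in spleens. The SD exceeded that of unmarked entries by 5.32 bases for asterisk and 5.93 bases for dot entries, in 6 of 6 libraries each (exact sign-flip permutation p = 0.03125, or 0.0406 with Benjamini-Hochberg adjustment over the 13 length tests).

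**Figure D5:**
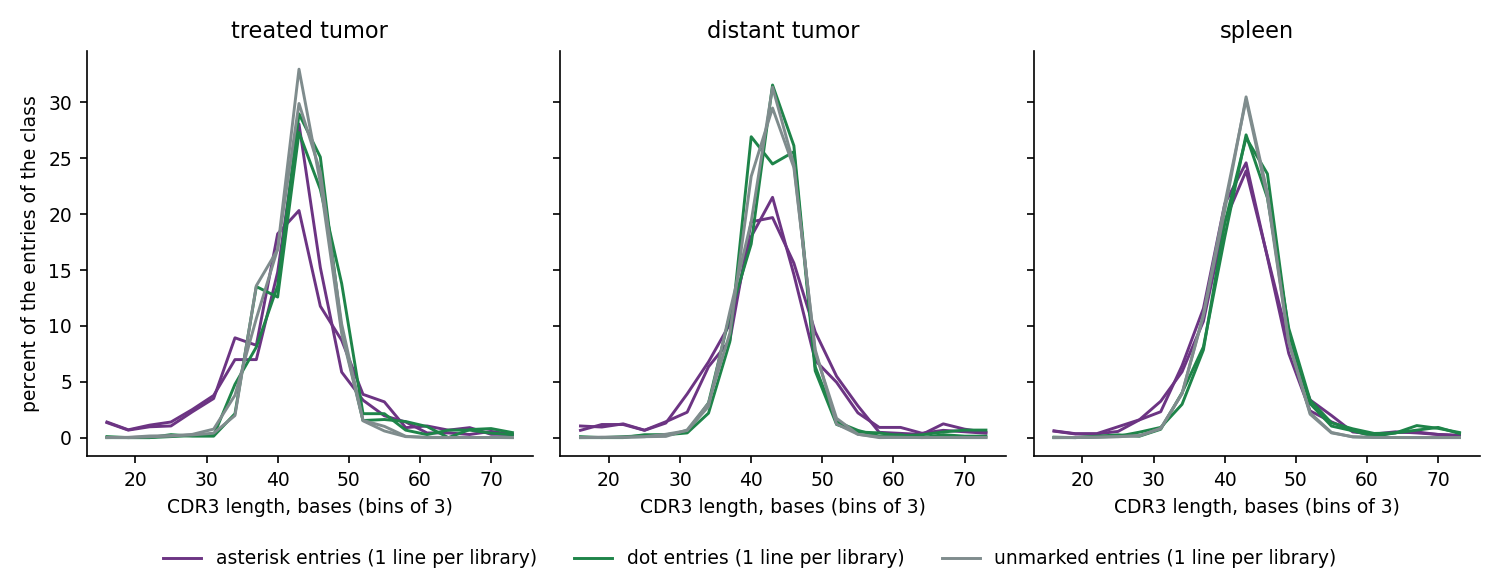
CDR3 length in bases (bins of 3) by tissue. Lines give the percent of the asterisk, dot or unmarked entries of 1 library in each bin. Asterisk entries have more weight at both ends, with 12.97% to 20.998% under 36 bases, against 2.97% to 5.09% of unmarked entries. The cut also takes in asterisk lengths that unmarked entries, in multiples of 3 bases, cannot have.

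Counted over all starts, asterisk entries were in excess at both ends of the length distribution and dot entries at the long end, as the length plot shows. Unmarked lengths are multiples of 3 bases and asterisk lengths are not. Both cuts, here and below, therefore take in asterisk lengths next to the cut that unmarked entries cannot have. This adds to the asterisk shares at both ends, by an amount that was not measured. Under 36 bases were 20.998% and 19.97% of asterisk entries in treated tumors, 15.1% and 17.7% in distant tumors, and 13.0% and 13.8% in spleens. Dot entries had 5.31% and 2.68% in treated tumors, 3.20% and 4.14% in distant tumors, and 4.57% and 5.31% in spleens. Unmarked entries had 5.06% and 2.97% in treated tumors, 4.04% and 3.86% in distant tumors, and 5.06% and 5.09% in spleens. Over 51 bases were 11.7% and 9.08% of asterisk entries in treated tumors, 12.1% and 11.1% in distant tumors, and 6.29% and 7.81% in spleens. Dot entries had 7.74% and 5.89% in treated tumors, 4.21% and 2.20% in distant tumors, and 5.66% and 7.13% in spleens, and unmarked entries between 0.329% and 1.21%.

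In bases and over all starts, mean lengths differed more from unmarked entries for dot than for asterisk entries, except in distant tumor 1. Asterisk entries averaged 42.2 and 41.7 bases in treated tumors, 42.9 and 42.0 in distant tumors, and 42.4 and 42.5 in spleens. Dot entries averaged 44.1 and 43.7 in treated tumors, 42.7 and 42.3 in distant tumors, and 44.2 and 44.7 in spleens. Unmarked entries averaged between 41.6 and 42.0. The difference from unmarked entries was 0.518 ± 0.515 bases for asterisk entries (SD over 6 libraries, higher in 5 of 6, exact sign-flip permutation p = 0.0938). It was 1.87 ± 0.959 bases for dot entries (higher in 6 of 6, exact sign-flip permutation p = 0.03125). Counted in characters, a mark being 1, asterisk entries were longer by 1.19 ± 0.171 and dot entries by 0.658 ± 0.328 (higher in 6 of 6 each, exact sign-flip permutation p = 0.03125). When the marks were not counted, both were shorter (-0.334 and -0.441, exact sign-flip permutation p = 0.03125 each), so the sign of the difference in characters is set by whether the mark is counted.

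A start other than that of the TRBV gene was more frequent among asterisk and dot entries than among unmarked entries in each library. For asterisk and unmarked entries, but not for dot entries, it was also more frequent in every tumor than in either spleen. The share of entries that begin with the usual 3 residues of their TRBV gene was 40.4% and 42.6% of asterisk entries in treated tumors, 41.2% and 41.9% in distant tumors, and 72.8% and 70.0% in spleens. It was 45.5% to 50.7% of dot entries in all libraries. A dot within these 3 residues precludes the usual start by definition. Of 7243 entries with 1 dot and no asterisk, 912 had the dot at position 1, 29 at position 2 and 244 at position 3. Among unmarked entries it was 68.5% and 66.3% in treated tumors, 70.0% and 73.8% in distant tumors, and 91.3% and 90.6% in spleens. Among asterisk entries with the usual start, 9.39% and 9.51% were under 36 bases in treated tumors, 8.51% and 5.30% in distant tumors, and 8.61% and 9.59% in spleens, and the share over 51 bases was 1.97% to 2.83%. Over 51 bases were 0.792% and 1.32% of dot entries with the usual start in treated tumors, 0.175% and 0.275% in distant tumors, and 1.68% and 2.41% in spleens. Unmarked entries with that start had 0.572% and 1.08% in treated tumors, 0.383% and 0.340% in distant tumors, and 0.503% and 0.510% in spleens, above the dot share in both distant tumors. The SD of length with the usual start was 10.4 and 4.212 bases for asterisk entries in treated tumors, 4.53 and 3.999 in distant tumors, and 6.42 and 5.14 in spleens. For dot entries it was 5.16 and 4.08 in treated tumors, 4.61 and 5.18 in distant tumors, and 14.2 and 18.0 in spleens. For unmarked entries it was 4.07 and 4.215 in treated tumors, 4.09 and 3.99 in distant tumors, and 4.25 and 4.24 in spleens. In treated tumor 2 and distant tumor 1 the marked SDs lay within 1 base of the unmarked ones, as did the asterisk SD in distant tumor 2 and in spleen 2, and the dot SD in treated tumor 2 was below the unmarked one. With that start the mean difference in bases was 0.793 for asterisk entries (higher in 6 of 6, exact sign-flip permutation p = 0.03125) and 0.931 for dot entries (higher in 5 of 6, p = 0.0625). For dot entries that difference was 0.187 and 0.274 in treated tumors, -0.0359 and 0.0637 in distant tumors, and 2.04 and 3.06 in spleens. Over all starts, the longest dot entries had 197 and 173 bases in treated tumors, 117 and 111 in distant tumors, and 189 and 180 in spleens. No unmarked entry was longer than 120 bases. How far a few long dot entries set these means and SDs was not tested. The asterisk difference lay between 0.449 and 1.12 in all libraries. It was above the dot difference in every tumor and below it in both spleens. The part of misread or misassigned V ends in these lengths was not tested.

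Across tissues, no V or J segment passed on marked reads by edgeR's quasi-likelihood test. Of 22 TRBV genes, 0 passed between treated and distant tumors (0%; 3 at an unadjusted p under 0.05, and DESeq2 gave 1 call). The gene with the smallest p was TRBV24, higher in treated tumors by 2.13 on the log2 scale (SE 0.57, adjusted p = 0.112). DESeq2 called it (adjusted p = 0.0407), whereas without the 10 most abundant entries of each class its difference was 0.94 (adjusted p = 0.608). Without distant tumor 1 it passed (3.09, edgeR adjusted p = 0.0420). CASSLP**SSAETLYF and CASSLGLGGC*EQFF held 167 of 251 asterisk reads of TRBV24 in treated tumor 2 and 87 of 250 in treated tumor 1. Tumors set against spleens gave 0 calls among the same 22 genes (0%; 1 at an unadjusted p under 0.05, and DESeq2 gave 1 call, TRBV30). Counted as entries, 2 of 21 (9.52%) passed, TRBV31 (-1.10) and TRBV4 (-1.04) being lower in tumors (adjusted p = 0.0282 each). The unmarked read shares of both genes, given above, were also lower in every tumor than in either spleen. On entries, the difference between marked and unmarked changed with tissue past the threshold for 0 of 22 TRBV genes (0%).

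Of 12 TRBJ genes, 0 passed between treated and distant tumors (0%; 1 at an unadjusted p under 0.05) and 0 between tumors and spleens (0%; 2 at an unadjusted p under 0.05), and DESeq2 gave 0 calls in both. Among them TRBJ1-5 had -0.93 in tumors against spleens (adjusted p = 0.0893). On entries TRBJ1-2 was lower in treated than in distant tumors (-0.997, adjusted p = 0.0418), in a group where distant tumor 1 held 20.5% of its dot entries in TRBJ1-2. The difference between marked and unmarked reads did not change with tissue beyond the threshold for any gene (tumors against spleens, 0 of 23 TRBV and 0 of 12 TRBJ genes, 2 of each at an unadjusted p under 0.05, and 0 calls of either by DESeq2). Mean length of marked entries was 14.8 characters in tumors and 15.1 in spleens (difference -0.317, exact permutation p = 0.133).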

How the data were processed

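TCR-β libraries were made, per the labels' protocols, from total RNA by ligation of a 5′ adaptor to double-stranded cDNA, a cut with SphI, nested PCR with adaptor and constant region primers, and MiSeq sequencing (paired, 300 bp). The deposited counts are whole reads per entry (V segment, J segment and CDR3 residues), not normalized. The deposited percent values are relative to the reads of unmarked entries of a library, to within 0.00499 points, and were not used further. For the aligner, the germline reference and any error handling, names and versions were not given in the sources used here.

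Entries with an asterisk or a dot were classed from the CDR3 text, those with both as dot. Reads per gene were tested with edgeR 4.0.16 (R 4.3.3): quasi-likelihood, column-total scaling, its count filter at a minimum of 10, and the library as block between classes. Fits between tissues used marked reads only, and had tissue as the group; the difference of the differences was an interaction term. DESeq2 1.42.0 was an alternative. Shares and lengths were compared with exact permutation tests (scipy 1.17.1): 6 relabelings for 2 libraries against 2, 15 for 4 against 2, and 64 sign flips over 6 libraries. Adjustment was by Benjamini-Hochberg. The fits were tested on simulated data. Germline bases and annotations are those of GENCODE M21 (GRCm38). Totals per library were 44472 to 145211 reads, and each group has only 2 libraries, which limits every comparison.

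Named genes were all past an adjusted p of 0.05 in a fit, up to 12 by size, the 4 TRBV and 3 TRBJ genes with the highest and lowest marked share among those with at least 500 reads, and pseudogenes. Named entries were the 2 asterisk and 2 dot entries with the most reads per library. The members, lists and tests were chosen with earlier results of these data known. Restricting to usual first residues, lengths in bases, prefix matches of asterisk entries, fits without TRBV24 and the germline comparison of the marks were added after the data were seen, as were the leading shared entries. Other alternatives were distinct entries, TMM, no filter, entries of at least 2 reads, no abundant or partnered entries, and each library left out.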

Additional observations from a re-analysis of the deposited data

How the results depend on the processing

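The TRBV24, TRBV31 and TRBV4 excess in asterisk reads kept its direction under every alternative run. With entries of at least 2 reads the TRBV4 call was lost (edgeR adjusted p = 0.0910). Counted as entries, the differences of tumors and spleens were 7.36 points for all marked, 5.37 for dot and 1.99 for asterisk entries, and the dot difference of treated and distant tumors was 0.131; entries of at least 2 reads gave a dot difference of tumors and spleens of 0.127 and usual first residues one of 0.00753. Lengths without the marks were -0.398 (marked), -0.441 (dot) and -0.334 (asterisk) characters; dot lengths were 0.966 with at least 2 reads (p = 0.125, exact sign-flip permutation) and 0.318 with usual first residues, and asterisk length in bases was 0.518. The TRBJ1 difference of marked entries was -1.92 points. Counts of TRBV calls became, for marked, 3 with no library block; for dot, 8 (entries), 0 (without the 10 most abundant entries), 2 (at least 2 reads), 2 (usual first residues), 4 (DESeq2) and 0 (no library block); for asterisk, 2 (at least 2 reads) and 4 (no library block); for dot against asterisk, 3 (at least 2 reads); and between tumors and spleens 2 (entries) and 1 (DESeq2). Counts of TRBJ calls became, for marked, 6 (entries), 4 (without abundant entries) and 1 (TMM); for dot, 9, 7 and 2 under the same settings, 0 (at least 2 reads), 2 (usual first residues), 2 (DESeq2) and 0 (no library block); for asterisk, 5, 5 and 2, then 0 (at least 2 reads), 2 (DESeq2) and 0 (no library block); for dot against asterisk, 7 (without abundant entries), 1 (at least 2 reads) and 0 (no library block); and between treated and distant tumors 1 each for entries and without abundant entries. TRBV16 in asterisk reads was 0.0359 on the log2 scale without abundant entries, and TRBJ1-6 was -0.11 (dot against unmarked) and -0.39 (dot against asterisk) with at least 2 reads. The causes were not tested. Leaving out each library in turn gave, in points, -0.207 to 0.600 (marked, treated minus distant), -1.88 to -1.57 (marked, tumors minus spleens), -0.217 to 0.0158 (dot, tumors minus spleens), -1.90 to -1.53 (asterisk, tumors minus spleens), 0.203 to 1.05 (asterisk, treated minus distant) and -0.678 to -0.183 (dot, treated minus distant). The marked difference of treated and distant tumors turned negative without treated tumor 1, and the dot difference of tumors and spleens turned positive without treated tumor 1 or 2. Lengths ranged over 0.880 to 0.994 (marked), 0.574 to 0.748 (dot) and 1.14 to 1.24 (asterisk) characters, and -0.371 to -0.257 between tumors and spleens; 5 libraries allow no sign-flip p below 0.0625. TRBJ1 differences ranged over -3.21 to -1.20 (marked), -4.81 to -3.32 (asterisk) and 0.480 to 3.003 (dot) points. TRBV calls ranged over 3 to 6 (marked), 0 to 1 (dot), 7 to 11 (asterisk), 6 to 11 (dot against asterisk), 0 to 1 (treated against distant), and 0 to 0 in the other 2 fits. TRBJ calls ranged over 0 to 3 (marked), 1 to 3 (dot), 0 to 2 (asterisk), 3 to 5 (dot against asterisk), 0 to 1 (treated against distant), 0 to 2 (tumors against spleens) and 0 to 0 (interaction).

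With the replicate number as a block, treated against distant tumors gave 1 TRBV call, TRBV24 (2.19 on the log2 scale, edgeR adjusted p = 0.00673); the block changed no other call. Deviations of same-numbered libraries correlated at 0.462 (treated and distant tumor), -0.140 (treated tumor and spleen) and 0.146 (distant tumor and spleen) over 21 genes. Unmarked entries shared between libraries of the same number and of different numbers were 1026 and 283 (treated and distant tumor), 1128 and 759 (treated tumor and spleen), and 2203 and 1000 (distant tumor and spleen), a hint from the data that the labels do not settle. The dot class had 827 to 2469 reads a library, which limits the genes with few reads, and each group had 2 libraries.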
